A study of Mus musculus with 3 samples.

Results

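The cells described here are early round spermatids (RSs), haploid germ cells of the mouse testis that carry acrosome transcripts while transcripts of protamines and transition proteins are still a small share of their RNA. They were chosen by measured values. A droplet barcode had to hold at least 4000 unique molecular identifiers (UMIs, each counting 1 captured transcript), over 500 genes and under 10% mitochondrial UMIs. The acrosome genes Acrv1, Spaca1 and Spaca3 and the kinase gene Tssk1 then had to give at least 0.1% of its UMIs, Prm1, Prm2, Tnp1 and Tnp2 together under 2%, Piwil1 under 0.01%, and Ccna1 with Cdc20 under 0.03%. Of 6424 cells that passed the quality limits, 952 met the rule. They were 529 of 3294 cells in WT (16.1%, interval 14.8% to 17.4%), 246 of 2058 in KO (11.95%, 10.6% to 13.4%) and 177 of 1072 in KI (16.5%, 14.3% to 18.9%). No cell type annotation entered this choice, and the levels of the 11 genes of the rule are given only as a description.

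Testicular cells of C57BL/6 mice, labelled as 8 weeks old, were run on the Chromium droplet system. WT is the wild type. KO (GRTH-KO) lacks GRTH/DDX25, a testis RNA helicase needed for spermatids to complete their development. KI (GRTH-KI) carries an arginine-to-histidine substitution in GRTH that abolishes its phosphorylated form and leaves the non-phosphorylated form. The study describes the KI animals as transgenic for a human form of the gene, whereas UMIs were counted on mouse genes, and what this does to the KI level of Ddx25 was not tested. The labels describe 1 mouse for each genotype, whereas the methods of the study pool the testes of a pair of mice per group and give the animals a wider age range. In either case there was 1 library for each genotype, so genotype and library cannot be told apart, and without replicates the genotypes could not be compared by a test. All intervals are exact 95% intervals (Clopper-Pearson for shares, conditional binomial for folds between libraries) and cover counting error only.

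A round spermatid forms when the second meiotic division ends. Vesicles from the Golgi apparatus fuse on its nucleus into the acrosome, the secretory cap that a spermatozoon opens at the egg, while the chromatoid body, a germ granule in the cytoplasm, gathers RNA and RNA helicases. Genes of the acrosome, the flagellum and later the protamines are transcribed at this stage with the activator CREM, and many of these mRNAs are stored and translated only during elongation, when the histones are replaced and transcription stops. The X chromosome, silenced in pachytene spermatocytes, is partly active again in RSs.

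The chosen cells differed between libraries in depth and in how the rule selected them. Their summed UMIs came to 8432629 in WT against 3899909 in KO and 4742429 in KI, and a cell held a median of 11810, 11580 and 19580 UMIs. After every cell was thinned to 4000 UMIs, the median number of genes per cell was 2073 in WT and 2152 and 2162 in KO and KI. Cells of at least 50000 UMIs were 3.403% of the chosen cells in WT, with 4.07% in KO and 13.0% in KI. Doublets were not called. No barcode was shared between the chosen cells of any pair of libraries.

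The limit on Ccna1 and Cdc20, a meiotic cyclin and an activator of the anaphase-promoting complex, removed unequal shares. It took out 144 of 673 WT cells (21.4%, interval 18.4% to 24.7%), 301 of 547 KO cells (55.0%, 50.8% to 59.3%) and 148 of 325 KI cells (45.5%, 40.0% to 51.1%). The removed cells were low in acrosome transcripts, with a median of 0.150%, 0.180% and 0.170% of UMIs on the 4 acrosome and kinase genes of the rule, against 0.303%, 0.348% and 0.355% in the cells kept. Levels are given as CPM, the UMIs of a gene per 1000000 UMIs summed over the chosen cells of a library. In these units Cdc20 stood at 44.7 in WT against 73.1 in KO and 85.2 in KI, and without the limit at 68.0, 179 and 162 CPM. The limit removed a larger share of cells in KO and KI than in WT, so the main results are also given without it, and its part in each difference was not tested.

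Cells within 10% of a limit were few for most of the rule. Cells with 0.1% to 0.11% of UMIs on the 4 acrosome and kinase genes numbered 7 in WT and 3 and 1 in KO and KI, and 11, 7 and 2 cells lay just under the limit, from 0.09%. Protamine and transition protein transcripts of 1.8% to 2% were found in 7, 0 and 2 cells, and 1, 2 and 2 cells fell just past the limit, up to 2.2%. For the limit on Ccna1 and Cdc20, 23, 13 and 15 cells lay just under it, from 0.027%, and 28, 24 and 11 just past it, up to 0.033%. Of the cells it removed, 124 in WT, 201 in KO and 118 in KI were below 0.06%. Protamine and transition protein transcripts were low rather than absent in the chosen cells, with a median of 0.258% of UMIs in WT, with 0.212% in KO and 0.107% in KI.

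Round spermatid markers that the rule did not use were high in the chosen cells. The 15 other genes, such as Catsper3, Eqtn, Izumo1, Zpbp and Sun5, summed to 5741 CPM in WT against 6920 in KO and 6527 in KI, and to 5324, 5460 and 5264 CPM without the limit on Ccna1 and Cdc20, where KI lay below WT. In pachytene spermatocytes, gated by at least 0.03% of UMIs on Piwil1 and acrosome and protamine transcripts below 0.1% and 2%, the same 15 genes summed to 1162, 1164 and 1049 CPM. In later RSs, with protamine and transition protein transcripts of 2% to 10%, they summed to 5871, 6089 and 5799 CPM. These markers thus do not set early RSs apart from later ones. Of 11 pachytene markers 3 belong to the rule, and the other 8 gave 655, 688 and 659 CPM in the early RSs and 3422, 3366 and 3315 CPM in the pachytene gate. Somatic markers were near 0, with 14.5, 28.5 and 15.6 CPM over 11 Sertoli cell genes, 1.66, 6.67 and 5.90 over 7 Leydig cell genes, 2.96, 17.2 and 7.59 over 9 stromal and myoid genes, and at most 0.356 over 5 erythroid genes. The 9 macrophage genes gave 13.4 CPM in WT and 12.3 and 60.9 in KO and KI, where Cd74 stood at 19.2 CPM and Lyz2 at 9.70 CPM. No somatic marker reached the mean of 20 CPM required for a comparison.

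GRTH/Ddx25 itself (ENSMUSG00000032101, GRCm38 chr9:35536647-35558528, minus strand) matched the labels. The early RSs held 1294 Ddx25 UMIs in WT (154 CPM), 0 in KO and 625 in KI (132 CPM). KO was at least 199.5-fold lower than WT, taking 3 counts over the summed cells as the floor, and KI stood at 0.859 of the WT level (interval 0.779 to 0.946). In the pachytene gate Ddx25 was at 205 CPM in WT, with 0.572 in KO and 93.3 in KI. At 4000 UMIs per cell a Ddx25 transcript was found in 44.99% of WT early RSs, in 34.5% of KI and in 0 of 246 in KO, which allows a share of up to 1.49%. This bounds cells with a UMI at that depth and not cells that express the gene. Without thinning the KO count was also 0 of 246.

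The most abundant transcripts of the early RSs were common to the 3 libraries. Meig1, needed for the manchette and the flagellum, led with 7547 CPM in WT against 6826 in KO and 6280 in KI, followed by Ldhc, the germ cell lactate dehydrogenase gene, with 6126, 5594 and 5623. The 15 most abundant genes also held Gstm5 (4657, 4093 and 3959 CPM), the flagellar gene Ropn1l (4131, 3676 and 3582), the polyubiquitin gene Ubb (3204, 3268 and 3269), the fatty acid binding protein gene Fabp9 (3069, 3316 and 3216) and Gpx4 (3078, 3083 and 2730), a selenoprotein gene of the sperm midpiece. Gm5617 and Rbakdn stood at 4826, 3422 and 3278 CPM and at 3627, 2630 and 2697 CPM. None of the 15 reached a 2-fold difference between genotypes.

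Some transcripts stood higher in these cells than in both neighbouring gates, pachytene spermatocytes and later RSs, and how many did was not counted. Cells between the pachytene gate and the early RSs were not compared, so these values do not place a peak. Later RSs were gated by the same rule with protamine and transition protein transcripts of 2% to 10%. The 12 genes with the largest ratio of the early RSs to the higher of both neighbours were 4933436I20Rik, Tpte, Cntn6, Tssk5, Atp10a, AC155255.1, Lrrc4c, Spam1, Cnbd1, Gm47729, Iqca and Arhgap15. Being chosen for this pattern, their levels are a description. The leading one, 4933436I20Rik, stood at 137 CPM in WT and 96.7 and 156 in KO and KI and was at least 13.2-fold above either neighbour in every library. Without the limit on Ccna1 and Cdc20 it was at 154, 154 and 180 CPM, higher in each library than with the limit. Spam1, which encodes the sperm surface hyaluronidase PH-20, was at 188, 178 and 209 CPM in early RSs, at 29.7, 9.60 and 6.87 CPM in later RSs and at 2.29, 2.43 and 1.20 CPM in pachytene spermatocytes. The kinase gene Tssk5 was lowest in WT, with 52.2 CPM against 93.1 and 101, and Arhgap15 likewise with 58.7 against 116 and 136. Cntn6, a contactin gene, was at 171, 85.7, 24.3 and 10.5 CPM over WT cells with below 0.25%, 0.25% to 0.5%, 0.5% to 1% and 1% to 2% of protamine and transition protein UMIs. Each WT class was thus below the one before it. The same classes gave 110, 16.2, 9.001 and 44.25 CPM in KO and 149, 43.8, 86.3 and 8.28 CPM in KI. The rise to 44.25 CPM in KO rests on 17 cells with 203383 UMIs in sum. That to 86.3 CPM in KI rests on 8 cells with 69551 UMIs. With so few counts the order in KO and KI cannot be set against that of WT.

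**Figure D1:**
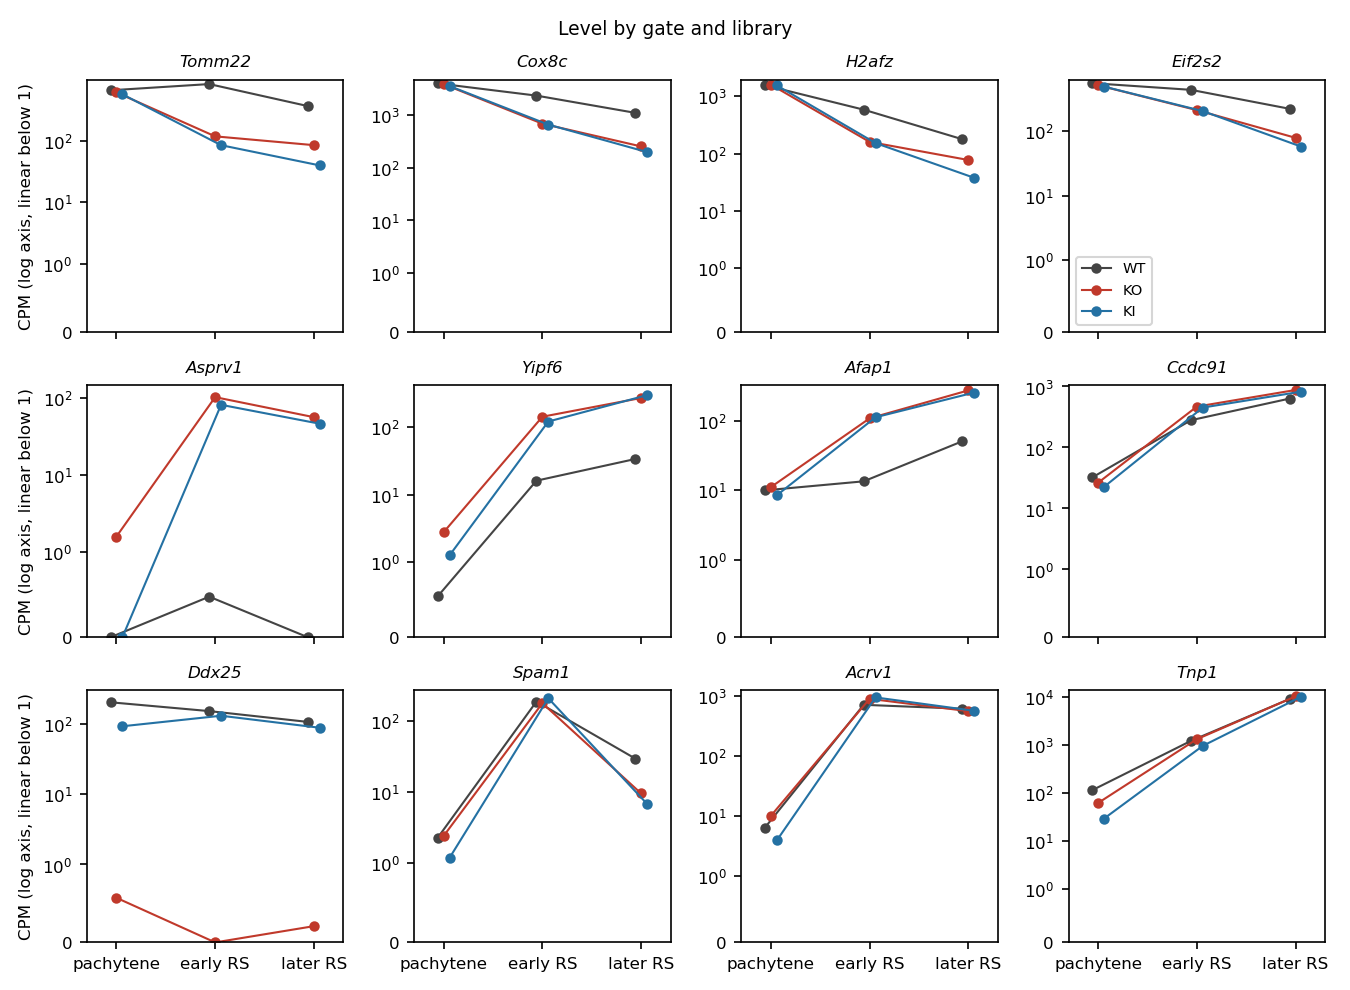
Level of 12 genes (CPM, log axis that is linear below 1) in pachytene spermatocytes, early RSs and later RSs of WT, KO and KI, 1 library each. Tomm22, Cox8c, H2afz and Eif2s2 start at like levels in the pachytene gate and are lower in KO and KI in early RSs, Asprv1, Yipf6 and Afap1 are higher there, and Ddx25 is at or near 0 in KO.

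KO and KI early RSs both differed from WT, upwards in some genes and downwards in others. Of 6053 genes with a mean of at least 20 CPM, 333 were higher by 2-fold or more in KO than in WT (5.5% of the genes tested) and 234 were lower (3.87%). In KI, 334 genes were higher than in WT by that measure (5.52%) and 237 lower (3.92%). Both comparisons share the WT library, so their likeness is not independent evidence. KI and KO were set apart by fewer genes, with 37 higher in KI (0.611%) and 18 lower (0.297%). These ratios were taken on a log2 scale with 1 CPM added, and a gene past 2-fold is called different by size alone. The mean of 20 CPM includes KO and KI, so a gene low in WT can pass it through high levels there. A gene lower in both needs a higher WT level to pass. The filter thus favours higher genes, and its part in these counts was not tested.

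These counts depended on the scaling, on the weight of single cells and on the limit on Ccna1 and Cdc20. Between KI and KO, 333 genes were higher in KI when every cell was weighted equally, 131 when cells of at least 50000 UMIs were left out, and 325 were lower in KI when the ratio was averaged over 4 classes of protamine share. The median log2 ratio over all tested genes was 0.06 for KO against WT and 0.13 for KI against WT, and -0.01 and 0.03 with TMM scaling, which allows for unequal composition. Of the genes past 2-fold in KI, 58.5% were higher with scaling by total UMIs, 48.2% with TMM scaling and 44.1% with the median of ratios. For KI against KO the share was 67.3%, and 53.9% with the median of ratios. Without the limit on Ccna1 and Cdc20, 107 genes were higher and 145 lower in KO, of which 78 and 104 were among those found with the limit. In KI, 144 were then higher and 157 lower, of which 102 and 111 were.

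Of the genes named in the text, 30 were higher and 26 lower by 2-fold in KO, and 19 and 21 of them were still so without the limit. In KI, 22 of 31 higher and 23 of 30 lower genes were, and between KI and KO 8 of 9 and 9 of 9. The fold against WT was then smaller by more than 1.5 times for 14 of the higher and 12 of the lower genes in KO, and for 10 and 14 in KI. Without the limit Adam6b, Cypt15, Dnajc3, Lamp2, Pgrmc1 and Zfy2 of the higher genes and Cox7b2, Eif2s2, Insl6, Rpl9 and the antisense transcript Gm26787 of the lower ones came under 2-fold in both genotypes. The same held in KO for 4930461G14Rik, Cntnap5b, Gpi1, Pkm and Rlim, and in KI for 4933438K21Rik, Dnah9, Fsip2, Cyct and Nap1l1. Between KI and KO it held for Fam172a.

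**Figure D2:**
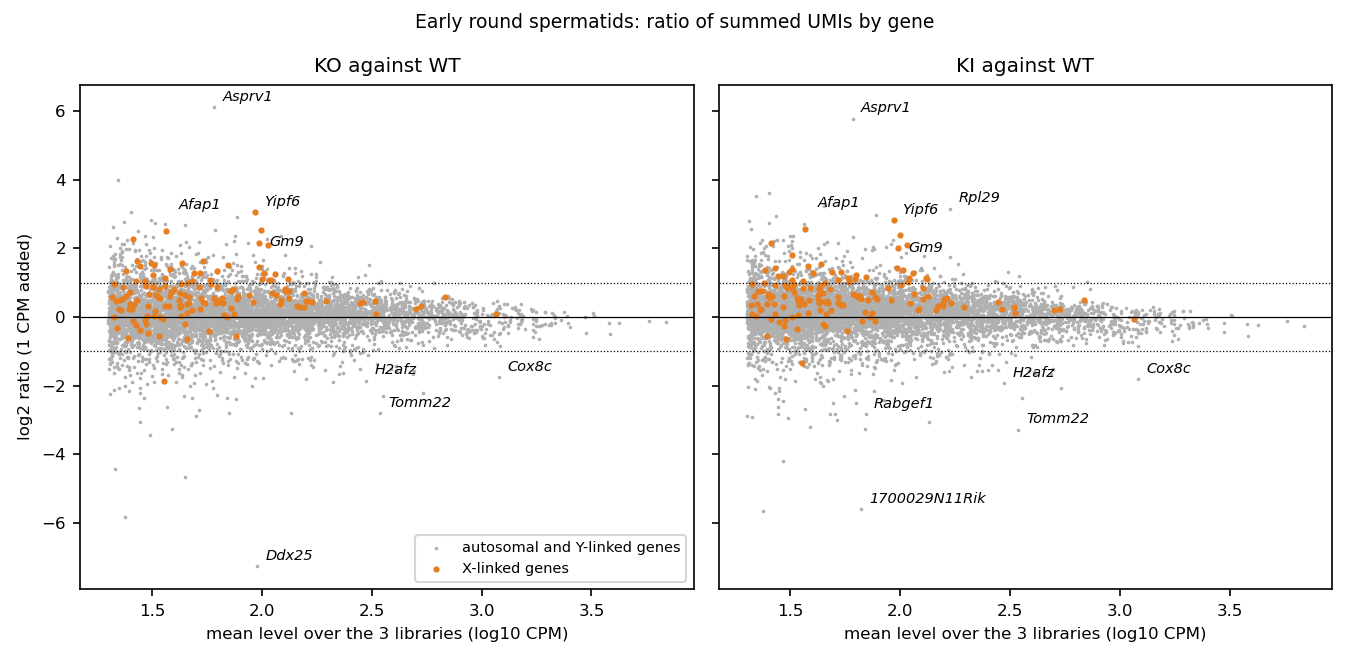
Log2 ratio (1 CPM added) of KO and of KI against WT for each of 6053 genes of the early RSs, against the mean level over the 3 libraries (log10 CPM), with dotted lines at 2-fold. X-linked genes lie mostly above 0 in both panels (126 of 143 in KO and 127 in KI), Tomm22, Cox8c and H2afz lie below the lower line, and Rpl29, Rabgef1 and 1700029N11Rik stand apart in KI.

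Few of the genes that differed in early RSs also differed in pachytene spermatocytes of the same libraries, and more did in later RSs. The pachytene gate held 304, 413 and 206 cells with 9149228, 13985257 and 14190797 UMIs in WT, KO and KI. Later RSs were 101, 211 and 68 cells with 2221310, 4793107 and 2622053 UMIs. The limit on Ccna1 and Cdc20 applied to both RS gates but not to the pachytene gate. What these unlike sizes and rules did to the counts was not tested. In the pachytene gate 3 of 6217 genes were higher (0.0483%) and 7 lower (0.113%) in KO, and 4 were higher (0.0643%) and 29 lower (0.466%) in KI. Of the 234 genes lower in KO early RSs, 183 were measured in the pachytene gate, where 3 were also 2-fold lower and their median log2 ratio was -0.07 against -1.33 in early RSs. Of the 333 higher genes, 56 were measured there and 0 were 2-fold higher. In later RSs, 529 of 5300 genes were higher (9.98%) and 444 lower (8.38%) in KO, and 612 were higher (11.5%) and 446 lower (8.42%) in KI. There, 116 of the 135 measured genes that were lower in KO early RSs were again 2-fold lower (85.9%), and 129 of 290 higher genes were again higher (44.5%). For KI these were 131 of 156 (84.0%) and 151 of 256 (59.0%). Early and later RSs come from the same libraries, so the later cells are no replicate of the early ones.

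**Figure D3:**
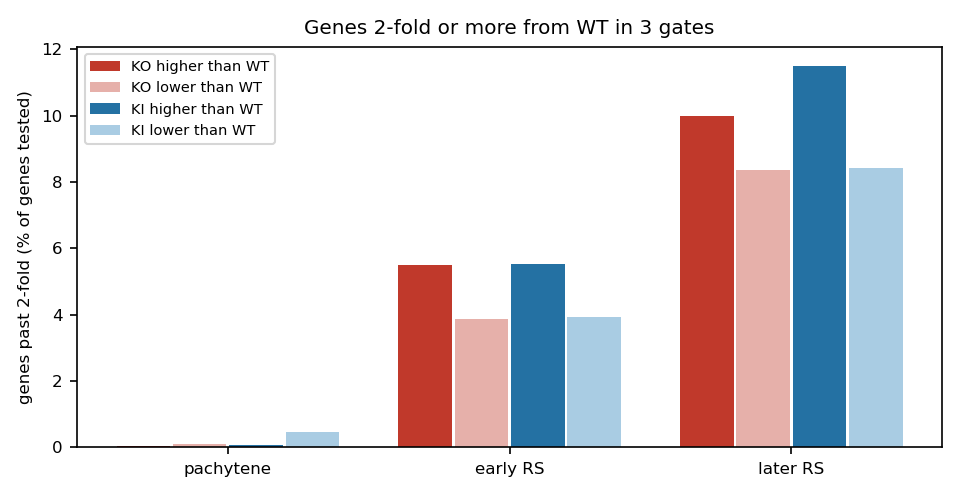
Share of the tested genes (%) that were 2-fold or more higher or lower than WT in KO and in KI, in pachytene spermatocytes, early RSs and later RSs. Each share is at most 0.466% in the pachytene gate, between 3.87% and 5.52% in early RSs and between 8.38% and 11.5% in later RSs. The gates differ in summed UMIs, and the pachytene gate has no limit on Ccna1 and Cdc20.

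Among the lower genes were abundant transcripts of mitochondrial proteins. Tomm22, which encodes the central receptor of the translocase of the mitochondrial outer membrane, was represented by 7023 UMIs in WT early RSs (833 CPM), 459 in KO (118 CPM) and 401 in KI (84.6 CPM). WT thus held 7.08 times the KO level (interval 6.44 to 7.79) and 9.85 times the KI level (8.91 to 10.9). In pachytene spermatocytes Tomm22 stood at 660, 608 and 569 CPM, and in later RSs at 365, 84.7 and 39.7 CPM. Without the limit on Ccna1 and Cdc20 the early RS values were 942, 226 and 168 CPM.

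Cox8c, a testis form of a cytochrome c oxidase subunit, was at 2291 CPM in WT, with 675 in KO and 649 in KI, 3.396 (3.26 to 3.54) and 3.53 (3.40 to 3.67) times higher in WT. The levels were 2556, 1201 and 1114 CPM without the limit on Ccna1 and Cdc20, a smaller difference. In the pachytene gate they were 3893, 3764 and 3471 CPM. Cox7b2, another testis form of an oxidase subunit, was at 877, 296 and 308 CPM, and Cyct, the testis cytochrome c gene, at 132, 70.3 and 62.6 CPM, past 2-fold in KI only. Of 21 tested genes of glycolysis and respiration, 2 were lower and 2 higher in KO, and 3 were lower and 0 higher in KI, where 5.5% of all tested genes were higher and 3.87% lower in KO and 5.52% and 3.92% in KI. Counts this small are not set apart from those shares. The higher pair in KO, Gpi1 (31.2, 66.4 and 60.3 CPM) and Pkm (28.5, 59.2 and 52.1 CPM), encode glycolytic enzymes. The median log2 ratio of the list was 0.03 in KO, -0.04 with TMM scaling, and 0.23 in KI.

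Transcripts of other functions were lower in the same cells. H2afz, which encodes the histone variant H2A.Z, was at 581 CPM in WT against 160 in KO and 152 in KI, with 679, 311.5 and 294 CPM without the limit and 1547, 1585 and 1537 CPM in the pachytene gate. Diablo, a gene of a mitochondrial promoter of apoptosis, was at 60.0, 23.9 and 15.8 CPM, and both genes were higher in the pachytene gate than in early RSs in all 3 libraries. Dnajb9, a chaperone cofactor gene of the endoplasmic reticulum, was at 113, 43.6 and 44.1 CPM, and Insl6, an insulin-like peptide gene, at 390, 182 and 188 CPM. Tlcd1, which overlaps Rpl23a on the other strand, was at 162, 30.5 and 15.8 CPM. For Dnajb9, Insl6 and Tlcd1 the pachytene levels of WT, 82.5, 264 and 82.1 CPM, were below its early RS levels.

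Several of the steepest differences fell on transcripts named by number alone. 1700010B08Rik was at 322 CPM in WT and 45.6 and 37.7 in KO and KI, 1700064M15Rik at 120, 15.1 and 16.03, 4930455B14Rik at 123, 17.7 and 14.3, and 4930522O17Rik at 137, 27.7 and 23.2. Without the limit 1700010B08Rik was at 354, 74.1 and 71.7 CPM, 1700064M15Rik at 124, 34.9 and 34.85, 4930455B14Rik at 131, 28.7 and 25.9, and 4930522O17Rik at 149.5, 47.2 and 40.1. The pachytene levels of these 4 genes lay between 116 and 368 CPM in all 3 libraries. Gm3453, at 162, 30.3 and 35.4 CPM and without the limit at 192, 74.1 and 84.4 CPM, was at most 3.50 CPM in the pachytene gate. Its level in cells between that gate and the early RSs was not measured. Long intergenic non-coding RNAs made up 20.1% of the genes lower in KO and 18.6% of those lower in KI, against 8.59% of all genes tested. They also made up 13.8% of the higher genes in both genotypes. Protein-coding genes made up 67.5% of those lower in KO, against 86.0% of all.

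Among the higher genes, Asprv1 was nearly absent from WT. Asprv1, a gene of a retroviral-like aspartic protease known from the skin, was found with 4 UMIs in WT early RSs (0.474 CPM), 395 in KO (101 CPM) and 382 in KI (80.5 CPM), 213.5 times (82.7 to 788) and 170 times (65.8 to 626) the WT level. The pachytene gate held 0, 1.57 and 0 CPM, and later RSs 0, 55.7 and 45.8 CPM. At 4000 UMIs an Asprv1 transcript was found in 0 of 529 WT early RSs, in 30.1% of KO cells (24.4% to 36.2%) and in 26.6% of KI cells (20.2% to 33.7%). The WT count allows a share of up to 0.695% of cells with a UMI at that depth, and without thinning 4 of the 529 cells held one (0.756%). Without the limit on Ccna1 and Cdc20 the levels were 0.373, 51.8 and 43.9 CPM.

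Yipf6 and Afap1 had a low level in WT and were higher in later than in early RSs of every library. Yipf6, a Golgi membrane protein gene on the X chromosome, was at 16.1 CPM in WT, with 143 in KO and 121 in KI, 8.86 times (7.33 to 10.8) and 7.52 times (6.23 to 9.13) higher than in WT, and reached 33.8, 270 and 298 CPM in later RSs. Afap1, an actin filament associated protein gene, was at 13.4, 107 and 111 CPM in early RSs and at 50.4, 271 and 252 CPM in later RSs. In both genes the KO and KI early RSs exceeded the WT later RSs. Without the limit the early RS levels were 13.6, 74.1 and 69.3 CPM for Yipf6 and 11.4, 57.5 and 60.4 CPM for Afap1, smaller differences than with it.

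Further higher genes belonged to varied functions. Kcnh8, a voltage-gated potassium channel gene, was at 14.8, 90.5 and 78.2 CPM, Npas1, a transcription factor gene known from neurons, at 21.2, 113 and 91.3 CPM, and the zinc finger gene Zfp362 at 33.0, 163 and 122 CPM. Without the limit these were at 14.7, 48.1 and 45.7 CPM, at 17.6, 61.9 and 54.3 CPM and at 26.1, 81.5 and 64.1 CPM. Unlike Yipf6, Kcnh8 and Npas1 were not higher in later than in early RSs of KO and KI, at 77.0 and 66.4 CPM for Kcnh8 and 61.5 and 55.3 CPM for Npas1. 4933438K21Rik (41.1, 217 and 109 CPM), Gm34623 (14.8, 70.8 and 70.2 CPM) and 4930461G14Rik (30.8, 96.7 and 151 CPM) were also among the genes with the largest differences.

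Within the gate, most of the named differences held their direction at each level of protamine and transition protein transcripts. The early RSs were split at 0.25%, 0.5% and 1% of UMIs into 260, 145, 79 and 45 WT cells, 143, 50, 36 and 17 KO cells, and 133, 28, 8 and 8 KI cells. Tomm22 was at 1045, 702, 506 and 426 CPM over these 4 classes in WT, at 151, 88.9, 66.4 and 108 CPM in KO and at 99.2, 52.7, 28.8 and 49.7 CPM in KI. The lowest WT class was thus above the highest of KO and KI. Yipf6 was at 8.15, 20.3, 27.0 and 35.1 CPM in WT and at 82.3, 182, 231 and 231 CPM in KO. In KI it was at 85.6, 190 and 345 CPM in the lower classes and at 213 CPM in the highest. Asprv1 was at most 1.17 CPM in any WT class, at least 63.9 CPM in any KO class and at least 63.5 CPM in any KI class. Of the named genes past 2-fold, 30 of 30 higher and 24 of 26 lower ones had the same direction in all 4 classes in KO, and 25 of 31 and 28 of 30 in KI. The exceptions were Diablo and 4930435F18Rik in both genotypes and Arhgap15, Dnah9, Dnajb9, Fsip2, Zfp362 and St3gal4 in KI. Past 2-fold in all 4 classes were 19 and 19 in KO and 18 and 20 in KI, where the classes from 0.5% hold only 8 cells each. Many of these genes were named for their values in the same cells, so these counts are a description.

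The share of cells with a transcript differed in the same genes. At 4000 UMIs, Tomm22 was found in 90.7% of WT early RSs, 39.4% of KO and 31.1% of KI, and in 82.9%, 86.7% and 78.6% of pachytene spermatocytes. Without thinning, Tomm22 was found in 97.7%, 69.5% and 70.6% of early RSs. Yipf6 was found in 4.92%, 30.5% and 28.2% of early RSs at 4000 UMIs, against 0.329%, 0.726% and 0.485% of pachytene spermatocytes, where its level was at most 2.79 CPM. Afap1 was found in 5.10%, 31.3% and 26.6% of early RSs. Cells gated as Sertoli cells, by at least 0.3% of UMIs on Cst9, Clu, Rhox8 and Aard, numbered 6, 11 and 6, and Yipf6 was found in 0, 2 and 0 of them.

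**Figure D4:**
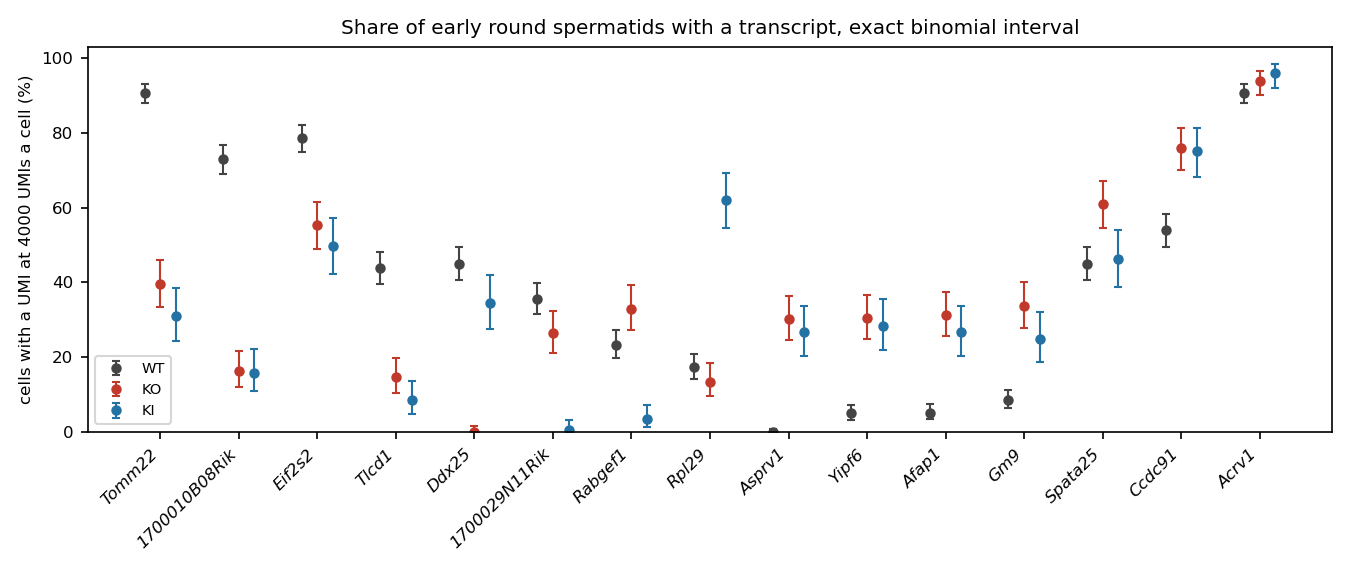
Share of early RSs (%) with at least 1 UMI of each gene after every cell was thinned to 4000 UMIs, for WT, KO and KI, with exact binomial 95% intervals. WT is highest for Tomm22, 1700010B08Rik, Eif2s2 and Tlcd1 and lowest for Asprv1, Yipf6, Afap1 and Gm9, and Rpl29, Rabgef1 and 1700029N11Rik set KI apart.

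X-linked genes were higher as a group in KO and KI early RSs. Of 143 tested X-linked genes, 31 were 2-fold higher in KO (21.7%) and 1 was lower, and 34 were higher in KI (23.8%) and 1 lower. Of 5894 autosomal genes 5.11% were higher and 3.95% lower in KO, and 5.06% and 4.004% in KI. The median log2 ratio of the X-linked genes was 0.54 in KO and 0.57 in KI, against 0.05 and 0.12 of the autosomal genes, and 126 and 127 of the 143 lay above 0. Between KI and KO, 0 of 143 differed by 2-fold. Some of the higher genes passed the mean of 20 CPM only through KO and KI, such as Yipf6 at 16.1 and Gm14664 at 7.95 CPM in WT. The part of this filter in the X-linked counts was not tested. The gene lower in KO was Psmd10, a proteasome assembly chaperone gene, at 65.0 CPM in WT against 16.9 in KO and 25.1 in KI.

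Besides Yipf6, the X-linked genes with large differences included testis genes named by number and genes used in many tissues. Gm9 was at 23.9, 145 and 130 CPM, Gm14664 at 7.95, 50 and 52.3 CPM, 4933400A11Rik at 30, 139 and 123 CPM, and Rnf138rt1 at 32.6, 145 and 144 CPM. Rlim, an E3 ubiquitin ligase gene, was at 50.6, 125 and 133 CPM, Pgrmc1, a haem-binding membrane protein gene, at 73.1, 159 and 162 CPM, and the lysosomal gene Lamp2 at 20.04, 45.4 and 43.0 CPM. Abundant X-linked spermatid genes differed less, with Tsga8 at 1149, 1227 and 1104 CPM (1057, 959.6 and 892 without the limit), Slxl1 at 316, 333 and 344 CPM (301, 285 and 309), and Cypt1 at 523, 787 and 740 CPM. Without the limit Cypt1 was at 446, 482.5 and 486 CPM, a smaller difference. Zfy2 on the Y chromosome was at 16.6, 35.4 and 38.2 CPM.

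The share of all UMIs that fell on X-linked genes was 1.08% in WT early RSs, 1.56% in KO and 1.55% in KI. Per cell, the median share was 1.05%, 1.48% and 1.48%, with the quartiles of WT at 0.759% and 1.37% and those of KO at 1.10% and 1.77%, so the cells of the libraries overlapped. Pachytene spermatocytes gave 0.0455%, 0.0565% and 0.0530%, and later RSs 1.54%, 2.25% and 2.46%. Over the protamine classes the share was 0.838%, 1.19%, 1.52% and 1.53% for WT cells, 1.27%, 1.71%, 2.01% and 2.08% for KO cells, and 1.34%, 1.90%, 2.02% and 2.47% for KI cells. WT was lowest in each class, though a class need not hold cells of the same stage in each library. Without the limit on Ccna1 and Cdc20 the share was 0.988%, 1.16% and 1.21%, and 10 of 132 X-linked genes were then 2-fold higher in KO (7.58%) and 15 in KI (11.4%), against 1.60% and 2.12% of 5949 autosomal genes.

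**Figure D5:**
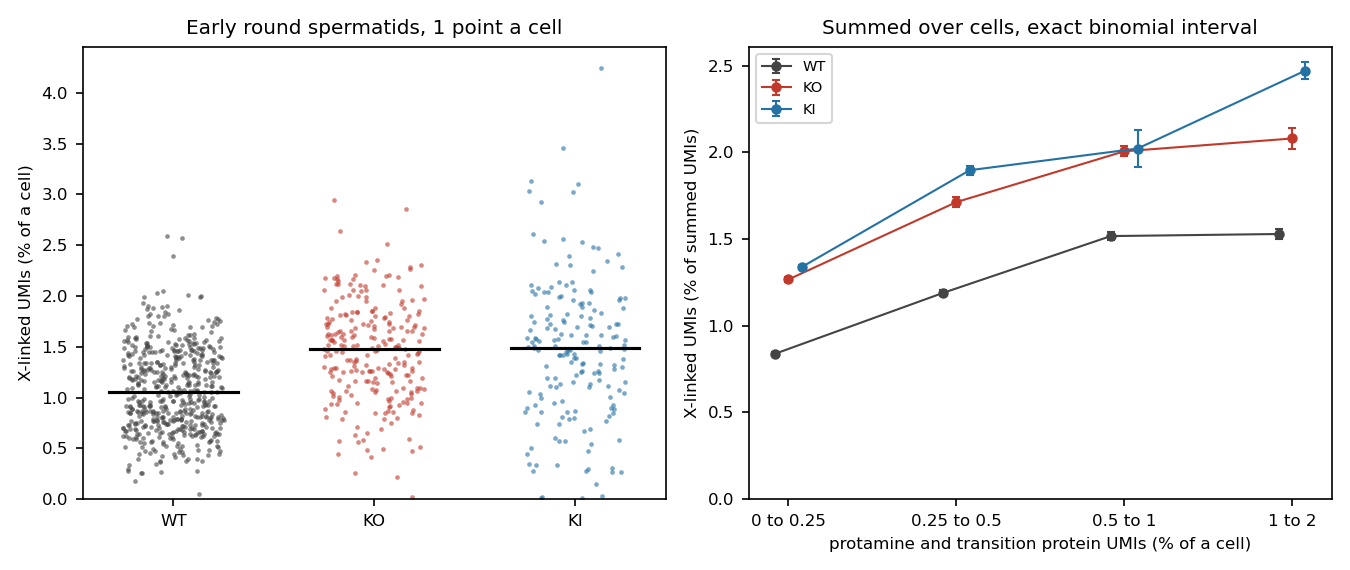
Left, X-linked UMIs as a share of the UMIs of each early RS (%), 1 point per cell with the median as a line, for WT, KO and KI. Right, the same share over summed UMIs (%) by class of protamine and transition protein UMIs, with exact binomial 95% intervals, where WT is lowest in every class.

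The sequences just upstream of 4 genes of these comparisons are printed to show which letters were searched for motifs. They are the 150 bases before the RefSeq start of each gene on GRCm38.p6, for Acrv1 of the rule (chr9:36693070-36693219, plus strand), Tomm22 as an abundant lower gene (chr15:79670718-79670867, plus), Asprv1 as the leading higher gene (chr6:86628024-86628173, plus) and Gm9 as an X-linked higher gene (chrX:37211042-37211191, minus). Both strands were searched for TGACGTCA, the cyclic AMP response element that CREM can bind, for its part TGACGT, which lies within the longer motif, and for TATAAA. Capitals mark the 1 match found, in Gm9, where ACGTCA is TGACGT read on the other strand.
Acrv1: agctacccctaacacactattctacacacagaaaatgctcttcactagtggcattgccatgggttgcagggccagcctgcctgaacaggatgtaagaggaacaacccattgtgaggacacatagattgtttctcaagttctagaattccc
Tomm22: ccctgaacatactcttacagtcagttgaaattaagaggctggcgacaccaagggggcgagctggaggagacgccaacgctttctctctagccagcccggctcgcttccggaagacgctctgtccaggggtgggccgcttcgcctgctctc
Asprv1: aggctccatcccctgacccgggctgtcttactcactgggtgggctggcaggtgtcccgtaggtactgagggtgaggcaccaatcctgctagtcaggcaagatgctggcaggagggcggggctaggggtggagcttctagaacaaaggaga
Gm9: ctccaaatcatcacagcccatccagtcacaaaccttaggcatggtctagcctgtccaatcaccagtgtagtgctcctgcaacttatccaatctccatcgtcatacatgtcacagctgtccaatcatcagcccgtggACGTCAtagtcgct
Of all 27025 genes with such a window, 1.58% held TGACGTCA, 5.87% TGACGT and 8.89% TATAAA. Of 4632 tested genes with a window the shares were 3.33%, 10.2% and 4.60%. The 236 genes higher in KO gave 2.54%, 8.90% and 5.93%, and the 167 lower genes 2.99%, 7.19% and 5.99%. For KI these were 1.74%, 8.26% and 4.78% of 230 higher genes and 1.75%, 5.26% and 6.43% of 171 lower genes. The shares of the higher and lower genes rest on 3 to 6 genes with TGACGTCA, 9 to 21 with TGACGT and 10 to 14 with TATAAA. A match is a run of letters and not a binding site.

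No acrosome gene of the lists passed 2-fold in either genotype. Over all tested genes 5.5% were higher and 3.87% lower in KO, and 5.52% and 3.92% in KI, so counts of 0 in lists this short lie near the share over all genes. Of 15 tested genes of the acrosomal matrix, among them Acr, Acrbp and Spink2, 0 were higher or lower by 2-fold in KO or KI, and the listed genes summed to 9381, 9261 and 9385 CPM. Of 18 acrosomal membrane genes, such as Spaca4, Izumo1 and Fam209, likewise 0 passed, with 6072, 6796 and 6285 CPM, and the same held for 9 tested genes of Golgi and vesicle transport. The median log2 ratio was 0.07 and 0.10 for the matrix genes, both 0.00 with TMM scaling, and 0.31 and 0.05 for the membrane genes, the latter -0.05 with TMM scaling. Without the limit on Ccna1 and Cdc20 the membrane genes summed to 5406, 4941 and 4767 CPM, with WT then highest. In the cells below 0.25% of protamine transcripts they were at 4567 CPM in WT and 5836 and 5736 in KO and KI. At 0.25% to 0.5% they were at 7225, 7490 and 7488 CPM. WT was highest in the upper classes, with 8570, 8283 and 7908 CPM at 0.5% to 1% and 8215, 7503 and 7649 CPM at 1% to 2%.

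The 4 genes by which the cells were chosen were at 701, 882 and 930 CPM (Acrv1), 796, 968 and 971 CPM (Spaca1), 904, 996 and 914 CPM (Spaca3) and 561, 762 and 660 CPM (Tssk1, which overlaps Dgcr2 on the other strand). They were without the limit on Ccna1 and Cdc20 at 638, 664 and 694.5 CPM, at 724, 718 and 712 CPM, at 812, 732 and 691 CPM and at 514, 579.8 and 531 CPM, so that WT was then highest in Spaca1 and Spaca3. The study measured Capza3, Eqtn, Spata25, Iqcf1, Atp6v1e2, Acrv1 and Tssk1 by qRT-PCR as acrosome genes, with Tex29 as the reference. Acrv1 and Tssk1 belong to the rule, and of the other 5 genes 0 passed 2-fold in either genotype, a count that lies near the 5.5% higher and 3.87% lower over all tested genes in KO. Spata25 was at 220 CPM in WT, with 389 in KO and 315 in KI, and at 176, 195 and 166 CPM without the limit on Ccna1 and Cdc20. Iqcf1 was at 477, 662 and 565 CPM, and at 380, 321.5 and 293 CPM without the limit, where WT was highest. WT was lowest with the limit for Eqtn (225, 360 and 328 CPM) and for Atp6v1e2 (528.5, 628 and 603 CPM), a proton pump subunit gene. Without it they were at 194, 238 and 225 CPM and at 475, 489 and 473 CPM. Capza3, an actin capping protein gene of the sperm head, was at 398, 388 and 384 CPM, and at 341, 248.5 and 262.5 CPM without the limit. The reference gene Tex29 was at 274, 472 and 369 CPM, and at 219.5, 243 and 201 CPM without the limit. Ccdc91, which the study uses as a marker of elongating spermatids, was at 280, 468 and 451 CPM, and at 233, 274 and 273 CPM without it. The 5 genes outside the rule summed to 1849, 2427 and 2195 CPM, and to 1567, 1493 and 1420 CPM without the limit, where WT was highest.

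The study also measured genes of translation. Among them Eif2s2 passed 2-fold. Eif2s2 encodes the beta subunit of eIF2, which brings the initiator tRNA to the ribosome, and stood at 430 CPM in WT against 209 in KO and 202 in KI, 2.06 times (1.91 to 2.22) higher in WT than in KO. It was at 478, 322 and 315 CPM without the limit on Ccna1 and Cdc20, and thus under 2-fold in both genotypes (log2 ratios of -0.57 and -0.60). The agouti gene, a, overlaps it on the other strand. Its pachytene levels were 546, 506 and 483 CPM, and an Eif2s2 transcript was found at 4000 UMIs in 78.6%, 55.3% and 49.7% of early RSs. Eif4e, which encodes the cap-binding factor, was at 131, 90.8 and 65.6 CPM, Rps26 at 1053, 748 and 743, Rps29 at 2159, 1604 and 1496, and Eif1 at 1389, 1588 and 1476, or 1320, 1319 and 1279 without the limit. Of 20 tested initiation factor genes, 1 was lower (Eif2s2) and 1 higher in both genotypes, about the share over all tested genes (5.5% higher and 3.87% lower in KO, 5.52% and 3.92% in KI). The higher one was Eif1b, at 47.3, 170 and 166 CPM in early RSs and 637, 631 and 638 CPM in the pachytene gate.

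Ribosomal protein transcripts were lower in sum in KO and KI. The 83 listed genes summed to 54010 CPM in WT and 44260 and 44660 in KO and KI. Without the limit on Ccna1 and Cdc20 they summed to 55300, 49910 and 50280 CPM, a smaller difference. With the limit, the median log2 ratio of 74 tested genes was -0.27 and -0.28, and -0.35 and -0.38 with TMM scaling. The sum was highest in WT in each protamine class, from 57260, 47460 and 45580 CPM below 0.25% to 48260, 38770 and 41950 CPM at 1% to 2%. Few passed 2-fold, near the share over all tested genes (3.87% lower in KO, and 3.92% lower and 5.52% higher in KI). In KO 2 genes were lower, Rps27a (196, 56.7 and 50.8 CPM), which encodes a ubiquitin fusion, and Rpl9 (339, 116 and 129 CPM), and 3 were lower and 1 higher in KI. In the pachytene gate the sum was 65260, 62060 and 64310 CPM.

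The other lists of spermatid genes held at most 2 genes past 2-fold each, counts too small to set apart from the share over all tested genes (5.5% higher and 3.87% lower in KO). No gene passed in either genotype among 10 tested testis-specific kinase and related signalling genes, 17 of head shaping, 14 of CatSper and other ion channels and 20 of meiotic division. Of 14 genes of the CREM pathway 1 was lower in both genotypes (Insl6), while Crem itself was at 570, 452 and 475 CPM, the gene of its partner, Fhl5, at 381, 496 and 436 CPM (312, 276.5 and 257 without the limit, where WT was highest), and Tbpl1, which encodes a paralogue of the TATA-binding protein, at 547, 388 and 422 CPM. Without the limit Tbpl1 was at 631, 598 and 609 CPM, a smaller difference. Of 18 chromatoid body genes Ddx25 alone was lower in KO and 0 differed in KI. Of 13 chromatin and histone genes H2afz was lower and Hmgb1, a DNA-bending protein gene, higher (44.1, 102 and 107 CPM) in both. Of 35 axoneme genes and 16 of dense fibres and fibrous sheath, 0 passed in KO and 1 each in KI, the dynein gene Dnah9 (37.7, 69.2 and 81.8 CPM) and Fsip2 (472, 690 and 968 CPM).

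Among stress and cell death genes few were past 2-fold. Dnajc3, which encodes an inhibitor of eIF2 alpha kinases, was at 15.8 CPM in WT, with 42.3 in KO and 41.8 in KI, 2.68 (2.12 to 3.397) and 2.65 (2.11 to 3.32) times the WT level. Dnajc3 was measured by qRT-PCR in the study together with Ccna1, Cdc20 and Dnah8. Dnajc3 was at 17.8, 35.4 and 36.1 CPM without the limit on Ccna1 and Cdc20, under 2-fold with log2 ratios of 0.95 and 0.98. In early RSs Dnah8 was at 165, 139 and 172 CPM, and at 198, 243.5 and 278 CPM without the limit, where KO was above WT. Of 12 tested genes of the unfolded protein response Dnajc3 was higher and Dnajb9 lower in both genotypes, and of 5 apoptosis genes Diablo was lower, counts too small to set apart from the 5.5% higher and 3.87% lower over all tested genes in KO. Of 17 genes of sperm ADAM proteins and their chaperones Adam6b was higher (11.2, 36.9 and 36.5 CPM). Dazl, a germ cell RNA-binding protein gene and the 1 spermatogonial marker that was tested, was at 8.89, 32.3 and 26.8 CPM. In WT, Dnajc3, Adam6b and Dazl lay below the mean level required for a comparison, which they passed only through KO and KI. For these genes being tested and being higher are thus partly the same event, and the part of the filter was not tested.

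Of 14 tested sex chromosome genes listed by name, Cypt15 (18.3, 56.7 and 55.2 CPM) and Zfy2 were higher by 2-fold in both genotypes, where 5.5% of all tested genes were higher in KO and 5.52% in KI. Cypt15 and Zfy2 lay below the mean level required for a comparison in WT and passed it only through KO and KI. The part of this filter in their being counted was not tested. In KO 12 of the 14 lay above 0, with a median log2 ratio of 0.46, and in KI 11 did, with a median of 0.40. The listed genes summed to 4629, 5696 and 5387 CPM, and to 4031, 3735 and 3714 CPM without the limit on Ccna1 and Cdc20, with WT then highest.

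KI differed from KO in a short list of genes. Besides Ddx25, Rpl29 on chromosome 9 was the most abundant of the higher ones, with 46.1 CPM in WT against 38.2 in KO and 420 in KI, 11 times the KO level (9.31 to 13.1). It was also apart in pachytene spermatocytes, at 54.2, 48.6 and 811 CPM, and was found at 4000 UMIs in 17.2%, 13.4% and 62.1% of early RSs. The lincRNA gene 1700029N11Rik on chromosome 13 was at 110, 87.4 and 1.26 CPM, 69.1 times (31.4 to 190) higher in KO than in KI. Rabgef1, a gene of an activator of the endosomal GTPase Rab5, was at 74.0, 125 and 9.49 CPM, 13.2 times (9.73 to 18.4) higher in KO, and at 61.6, 131 and 6.34 CPM in the pachytene gate. Pccb, a mitochondrial carboxylase subunit gene, was at 121, 197 and 35.4 CPM. Ide, the gene of an insulin-degrading protease, was at 59.7, 45.6 and 119 CPM, the chemokine receptor gene Cxcr5 at 42.1, 35.1 and 81.8 CPM, and Fam172a at 71.5, 51.3 and 115 CPM, or 87.1, 98.7 and 136 CPM without the limit, under 2-fold. Dpp10, a gene of a potassium channel partner, was at 87.8, 88.7 and 36.9 CPM, and the histone chaperone gene Nap1l1 at 104, 103.1 and 43.0 CPM. Rpl29 and Rabgef1 thus set KI apart in pachytene spermatocytes as well as in RSs.

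In other genes KO lay below or above both other libraries. 4930471D02Rik was at 75.4 CPM in WT and 10.0 and 127 in KO and KI. Klrb1, a receptor gene known from lymphocytes, was at 24.6, 0 and 110 CPM, and 4930435F18Rik at 20.8, 0 and 43.9 CPM, so in both genes KI also differed from WT by 2-fold. Cntnap5b was at 32.4, 100 and 35.0 CPM, and at 25.5, 49.5 and 17.7 CPM without the limit, where KO against WT was under 2-fold. In the protamine class of 0.5% to 1% it was highest in KI, at 316 CPM over 8 cells, against 63.9 in WT and 146 in KO. Of the 55 genes that differed by 2-fold between KI and KO, 10 lie on chromosome 9, which also carries Ddx25, or 3.01% of its 332 tested genes against 0.909% of all 6053, and 7 lie on chromosome 13, or 2.85% of 246. Another 4, Mical3, Klrb1, Grin2b (24.8, 88.0 and 8.64 CPM) and Dera (21.2, 66.7 and 0.211 CPM), lie between the bases 120931707 and 137857340 of chromosome 6 on GRCm38. That stretch holds 46 tested genes, and its ends were set at called genes after their values were seen.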

How the data were processed

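The authors deposited raw UMI counts per gene and barcode for each library, from Chromium 3' libraries aligned to mm10 (GRCm38). These counts were neither normalized nor filtered for cells. Per the labels the kit was version 2 with Cell Ranger 2.1.1 and a HiSeq 2500, whereas the file headers name Cell Ranger 4 and the paper's methods another sequencer. Total UMIs were 82973909 in WT, with 91388296 in KO and 73150373 in KI. The files hold 31053 genes, of which 30934 matched GENCODE M21, used for positions and overlaps.

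Cells were selected by the rule stated at the start. UMIs were summed over the chosen cells of a library and scaled by their total to CPM. Genes with a mean of at least 20 CPM over the 3 libraries were compared, as log2 ratios with 1 CPM added. Printed folds are plain ratios of CPM with nothing added. With 1 library per genotype no test was run, and at least 2-fold was called different. TMM and the median of ratios were computed as other scalings. Doublets were not called. Cells were thinned in 1 seeded draw to 4000 UMIs for shares of cells with a UMI. The ratios, the TMM scaling and the intervals of folds were tested on simulated summed counts. The choice of cells and the thinning were not. The work used pandas 2.3.3, matplotlib 3.10.9, scipy 1.17.1 and numpy 2.4.6 under Python 3.11.15.

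The cells, gene lists and alternatives were chosen with earlier results of these data known. Genes named were taken from the 15 most abundant, those of the rule, those the study names for RSs or measured by qRT-PCR, and abundant members of each list. Among genes of at least 50 CPM, the 8 highest and 8 lowest ratios of KO and of KI against WT were also named. So were the 6 highest and 6 lowest of KI against KO, and the 12 genes with the largest ratio to the higher neighbouring gate. X-linked genes, genes past 2-fold in a list and genes of the KI against KO list outside this rule were named after their values were seen. Promoter letters are RefSeq's on GRCm38.p6, printed from a table of windows, since no genome sequence was used here.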

Additional observations from a re-analysis of the deposited data

How the results depend on the processing

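No paired analysis was possible because each genotype has only replicate 1. Of 15 alternatives, none turned the direction of a ratio past 2-fold of the genes named for the size of their ratio. Of such ratios, 18 of 20 of KO against WT, 21 of 23 of KI against WT and 9 of 12 of KI against KO stayed past 2-fold in all. These genes were picked for their ratios in the same cells, which the alternatives largely reuse. Their stability is thus a description and no support for the ratios. Counts of higher and lower genes moved most with the filter. At a mean of at least 50 CPM they were 127 and 107 in KO, 121 and 118 in KI, and 9 and 9 for KI against KO, and with no filter 1638 and 794, 1645 and 780, and 414 and 359. Without the limit on Ccna1 and Cdc20 they were 107 and 145 in KO and 144 and 157 in KI, with 17 genes higher in KI than in KO. With every cell weighted equally 980 genes were higher in KI than in WT and 333 than in KO. Within protamine classes 569 were higher and 530 lower in KI than in WT, and 325 lower than in KO. For KI against KO, 5 CPM added gave 24 higher genes, cells of at least 2000 UMIs 20 higher and 37 lower, a protamine limit of 1% 30 lower, and cells under 50000 UMIs 131 higher. The settings without the limit on Ccna1 and Cdc20 and without cells of at least 50000 UMIs were chosen after seeing the data. The cause of each shift was not tested. The share of cells chosen in WT was 19.2% at 8000 UMIs or more, 14.7% with the 1% protamine limit, 12.2% with 0.2% acrosome transcripts and 20.4% without the limit on Ccna1 and Cdc20. In KO it was 15.1% at 2000 UMIs or more, 10.3% at 8000 or more, 10.3% with 0.2% acrosome transcripts and 26.6% without the limit. In KI the last 3 of these gave 13.5%, 14.1% and 30.3%. The X-linked share of KO was 1.59% at 8000 UMIs or more and 1.45% with equal weights, and that of KI 1.46% with equal weights.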

Other observations

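Genes outside the lists and the naming rule, chosen after their values were seen, included abundant transcripts that were lower in KO and KI early RSs. Cox4i1, which encodes a cytochrome c oxidase subunit used in most tissues, was at 768 CPM in WT against 155 in KO and 148 in KI, and at 834, 288 and 260 CPM without the limit on Ccna1 and Cdc20. Arl4a, a gene of a small GTPase, was at 1117, 241 and 263 CPM, and at 1185, 420 and 439 CPM without the limit. In the cells that the limit removed, Cox4i1 was at 1077, 396 and 366 CPM and Arl4a at 1432, 565 and 605 CPM, so both were higher there than in the cells kept, in each library. Asprv1 went the other way, at 0, 11.7 and 9.18 CPM in the removed cells.

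Within 10000000 bases of Ddx25 on chromosome 9, 5 of 34 other tested genes were past 2-fold in KO (14.7%, against 9.37% of all tested genes). The nearest, St3gal4 (chr9:35046576-35119268), a sialyltransferase gene, was higher, at 14.2, 35.6 and 36.7 CPM, and Fxyd2 (chr9:45399669-45410278), a gene of a sodium pump regulator, was higher in KO, at 10.2, 44.4 and 13.3 CPM. Among the lower genes Tmem225, a sperm membrane protein gene at chr9:40148122-40150880, was at 425 CPM in WT and 137 and 142 in KO and KI. The antisense transcript Gm26787 (chr9:36767887-36782677) was at 161, 73.6 and 78.2 CPM, and Gm29724 (chr9:30954087-31031205) at 59.4, 15.1 and 22.1 CPM.

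Barcodes under 50 UMIs, which hold too little RNA for a cell, gave 381 Ddx25 UMIs in WT (145 CPM of these barcodes), 76 in KO (34.4 CPM) and 383 in KI (126 CPM), although the KO early RSs held 0. Klrb1 gave 92, 25 and 248 UMIs there, Asprv1 9, 74 and 117, and Rpl29 333, 257 and 1593. Tomm22 gave 885, 651 and 610 CPM in these barcodes. The source of these transcripts was not tested.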
